A study of Mus musculus with 12 samples.

Results

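Proteasome genes were followed in skin that lacks type I or type II keratins. They were taken as all genes whose annotated symbol starts with Psma, Psmb, Psmc or Psmd and a digit, without Psmb8 and Psmb9, and 35 such genes stood on the array. Of these, 33 had a probe detected (detection p under 0.05) on at least 3 of 12 arrays, among 11163 features in all (10280 named genes and 883 probes without a gene name, together called genes from here on). Psma1 and Psma6 were not detected on any array and were not tested. The 33 genes are 29 proteasome subunits, 3 assembly chaperones with Psmd names (Psmd5, Psmd9 and Psmd10), and Psmc3ip, a meiotic recombination factor that the symbol rule takes in although it is no subunit. All 33 were detected on all 12 arrays.

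RNA was measured on Illumina bead arrays in back skin of C57BL/6 mouse embryos at E18.5, shortly before birth. The groups were the type I keratin knockout with its own wild type (wild type I) and the type II keratin knockout with its own wild type (wild type II), with 3 arrays each. The design asks how each knockout differs from the wild type of its own series. The labels name no transgene, Cre or treatment. They also leave unstated how many embryos stand behind each group, so the p-values measure only the spread between these arrays, which may be technical.

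The proteasome is the main protease of the cytosol and nucleus and degrades proteins marked with ubiquitin. Its core particle is a barrel of outer alpha rings, which gate the entrance, and inner beta rings, which carry the catalytic sites. A regulatory particle sits on the barrel: a ring of ATPases unfolds the substrate, and non-ATPase subunits bind ubiquitin chains, remove them and hold the particle together. The subunits are needed in fixed proportions, and their genes are known to be induced together by the transcription factor Nfe2l1 (Nrf1) when proteasome activity falls, with Nfe2l2 (Nrf2) acting on some of them under oxidative stress.

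The arrays matched their labels. Between 13272 and 13693 probes were detected per array, raw mean signals ranged from 332.8 to 574.2 before normalization, and log2 signals of arrays of the same group correlated at 0.962 to 0.991 across genes. The type I keratin genes Krt14 and Krt15 were detected on 0 of 3 type I knockout arrays and Krt10 on 1, while Krt5 and Krt1 were detected on 0 of 3 type II knockout arrays. All of these keratins were detected on every wild-type array. Replicate 2 of the type II knockout stood apart for the proteasome genes, as given with the type II results.

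In skin of the type I knockout, proteasome genes were mostly higher than in wild type I. By limma with Benjamini-Hochberg adjustment over all genes, 10 of 33 rose and 0 fell (30.3%), against 12.2% of all genes called higher, 15.6% called lower and 27.8% called in either direction. The risers were Psmd11, Psmb1, Psmd5, Psmd1, Psma7, Psmb7, Psmd12, Psmd14, Psmb3 and Psmc1, with log2 changes from 1.53 down to 0.42. A positive log2 change was seen in 28 of 33 (84.8%), against 39% of all genes, and the median log2 change was 0.24 against -0.11. On 19 genes all 3 knockout arrays lay above all 3 wild-type arrays and on 2 they lay below, while 18.4% of all genes were separated upward and 28.5% downward. Both particles took part: 4 of 13 core particle genes and 5 of 16 regulatory particle genes rose, with median log2 changes of 0.24 and 0.31. In whole skin, a change in the number of cells that express a gene and a change in its RNA per cell cannot be told apart.

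**Figure D1:**
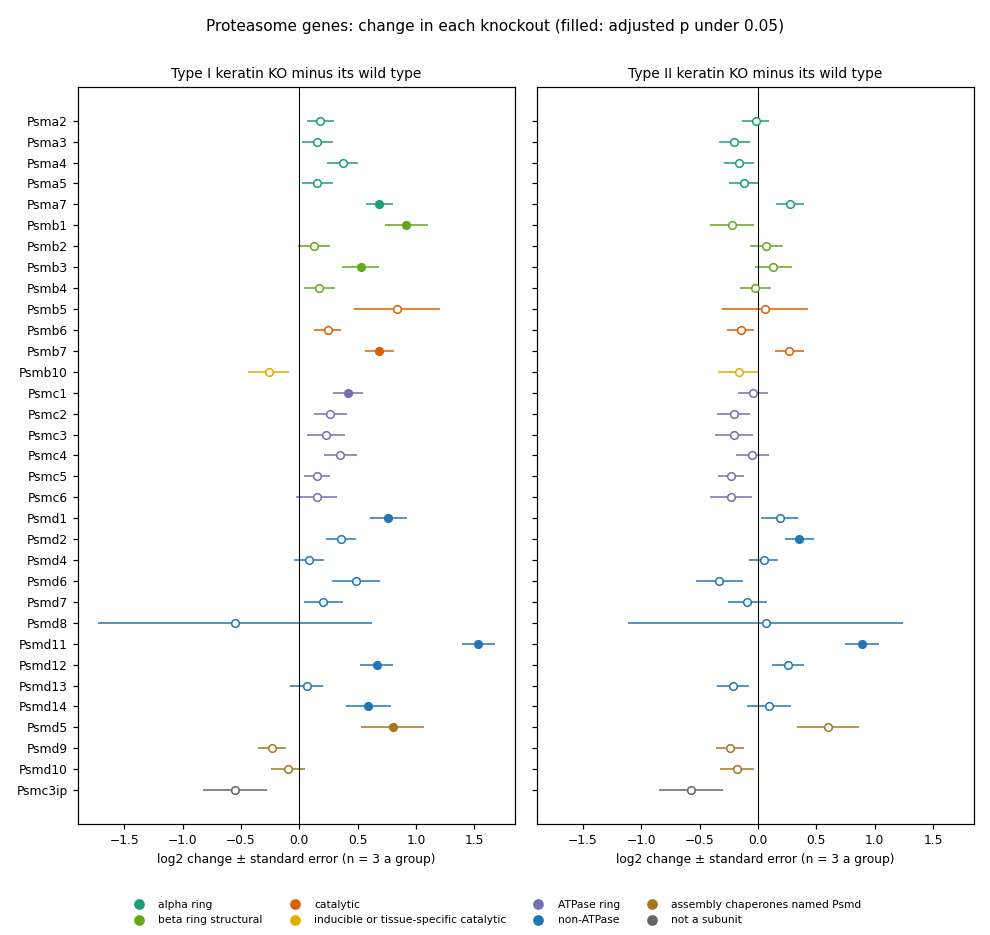
Log2 change (horizontal axis) of each of the 33 proteasome genes in the type I knockout (left) and the type II knockout (right) against its own wild type, 3 arrays a group. Points are the fitted changes, bars the standard errors, colours the role of the gene, and filled points have an adjusted p under 0.05. Most points lie right of 0 on the left (28 of 33), with 10 filled, and they scatter around 0 on the right (13 of 33 above), with 2 filled.

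Among the outer alpha subunits of the core particle, 1 of 5 rose and all 5 log2 changes were positive. Psma7 measured 10.17, 10.24 and 10.09 (log2 signal, replicates 1 to 3) in wild type I and 10.83, 11.02 and 10.70 in the knockout. The knockout arrays were all above the wild-type arrays, and the log2 change was 0.69 ± 0.12 (SE, adjusted p = 0.00153). Psma4 narrowly missed the threshold, at 11.59, 11.53 and 11.21 in wild type I against 11.79, 11.83 and 11.81 in the knockout (log2 change 0.37 ± 0.13, adjusted p = 0.0509). The groups did not overlap. Psma2, Psma3 and Psma5 had log2 changes between 0.15 and 0.18 and were not called.

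Of the beta subunits that carry no active site, 2 of 4 rose. Psmb1 measured 9.34, 9.47 and 9.97 in wild type I and 10.50, 10.36 and 10.66 in the type I knockout. Its groups were apart by 0.39 on the log2 scale although replicate 3 of the wild type stood above the other two wild-type arrays, and the log2 change was 0.92 ± 0.19 (adjusted p = 0.00419). Psmb3 measured 10.97, 11.19 and 11.03 in wild type I and 11.55, 11.68 and 11.53 in the knockout, again without overlap (log2 change 0.53 ± 0.16, adjusted p = 0.0286). Psmb2 and Psmb4 had log2 changes of 0.12 and 0.17 and were not called.

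Of the 3 constitutive catalytic subunits, 1 rose. Psmb7, which carries the trypsin-like site, measured 9.88, 9.93 and 10.16 in wild type I and 10.57, 10.80 and 10.64 in the knockout. These groups did not overlap, and the log2 change was 0.69 ± 0.13 (adjusted p = 0.00235). Psmb6, with the caspase-like site, measured 11.003, 11.12 and 11.10 in wild type I and 11.22, 11.35 and 11.38 in the knockout, a log2 change of 0.24 ± 0.12 that was not called (adjusted p = 0.143) although the groups were separate. Psmb5, with the chymotrypsin-like site, had the widest spread of the 3. It measured 7.47, 7.51 and 7.72 in wild type I and 8.75, 8.79 and 7.69 in the knockout. Replicate 3 of the knockout lay among the wild-type arrays, and the log2 change of 0.84 ± 0.37 was not called (adjusted p = 0.108). Without that array the log2 change was 1.2 (adjusted p = 0.0376). Psmb10, which takes the place of Psmb7 in the immunoproteasome of immune and cytokine-treated cells, measured 7.75, 8.17 and 8.58 in wild type I and 7.80, 8.01 and 7.91 in the knockout. Its groups overlapped (log2 change -0.26 ± 0.18, adjusted p = 0.292), and without wild type I replicate 1, the lowest array, the log2 change was -0.47 (adjusted p = 0.0456). In 22 of 23 alternatives Psmb10 was not called. With 1 array left out its log2 change ran from -0.47 to -0.0581. The other probe of Psmb10 was not called either (log2 change -0.21, adjusted p = 0.345).

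In the ATPase ring of the regulatory particle all 6 log2 changes were positive, between 0.15 and 0.42, and 1 of 6 was called. Psmc1 measured 9.46, 9.57 and 9.40 in wild type I and 9.99, 9.89 and 9.81 in the knockout. The groups did not overlap (log2 change 0.42 ± 0.13, adjusted p = 0.0339). Psmc2, Psmc4 and Psmc5 were also separate between the groups without being called, with log2 changes of 0.27, 0.35 and 0.15.

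Among the non-ATPase subunits 4 of 10 rose, and Psmd11 had the largest change of the 33 genes. Psmd11, a lid subunit that clamps the regulatory particle to the core, measured 7.32, 7.35 and 7.24 in wild type I and 8.68, 8.81 and 9.03 in the knockout. The groups lay far apart compared with their spread, at 2.90-fold (log2 change 1.53 ± 0.14, adjusted p = 1.7e-05). Psmd1, a scaffold of the base, measured 7.32, 7.53 and 7.62 in wild type I and 8.17, 8.29 and 8.31 in the knockout, without overlap (log2 change 0.76 ± 0.16, adjusted p = 0.00472). Psmd12, another lid subunit, measured 9.71, 9.75 and 9.32 against 10.36, 10.29 and 10.12 (log2 change 0.66 ± 0.14, adjusted p = 0.0051). Replicate 3 was the lowest array of both groups, and the groups did not overlap. Psmd14, the deubiquitinating enzyme that cuts ubiquitin chains off the substrate, measured 10.02, 9.96 and 9.56 against 10.49, 10.66 and 10.17 (log2 change 0.59 ± 0.19, adjusted p = 0.0375). Its replicates 3 were again the lowest of each group. Psmd2, Psmd6 and Psmd7 had log2 changes of 0.36, 0.49 and 0.20, and the ubiquitin receptor Psmd4 and the lid subunit Psmd13 had 0.08 and 0.06, all without a call.

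The chaperones that help build the ATPase ring did not move together. Psmd5 measured 5.89, 6.19 and 5.28 in wild type I and 6.97, 6.87 and 5.93 in the knockout, and it rose by a log2 change of 0.80 ± 0.27 (adjusted p = 0.0435). Replicate 3 was low in both groups, and the third knockout array lay below the highest wild-type array. Psmd9 and Psmd10 had negative log2 changes of -0.24 and -0.09 without a call. Psmc3ip had the largest negative log2 change of the 33, at 7.77, 7.86 and 7.53 in wild type I and 7.19, 7.25 and 7.07 in the knockout. Its groups were separate, but it was not called (log2 change -0.55 ± 0.27, adjusted p = 0.153). Without type II knockout replicate 1, which enters through the shared spread, its adjusted p was 0.0211.

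**Figure D2:**
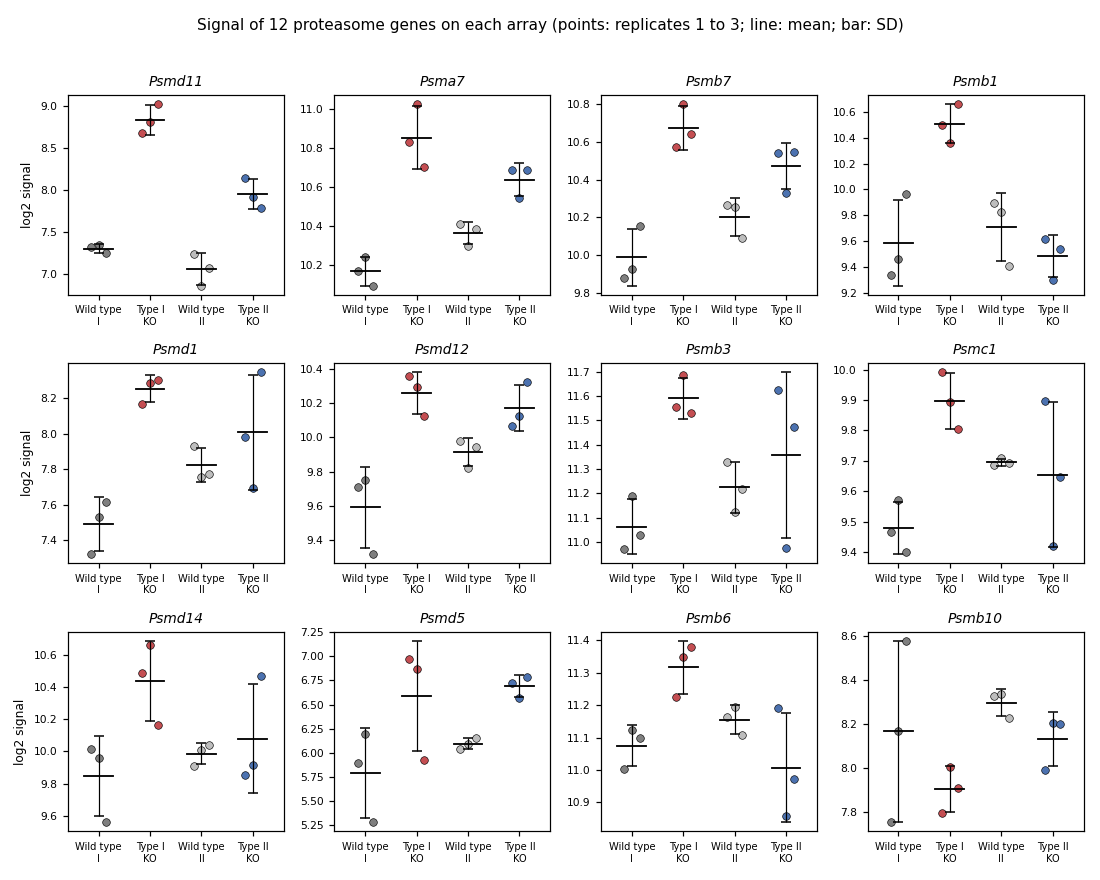
Log2 signal (vertical axes, a scale of its own in each panel) of 12 proteasome genes on each array, in wild type I, the type I knockout, wild type II and the type II knockout. Points are replicates 1 to 3, lines means and bars SDs. Psmd11 is higher in both knockouts on all arrays, while Psmb1 reads 10.36 to 10.66 on the type I knockout arrays and 9.97 or less on all others.

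The calls were not equally firm. Psmd11, Psma7, Psmb7, Psmb1, Psmd1 and Psmd12 kept an adjusted p under 0.05 in all 23 alternative analyses, including the omission of any single array. Psmb3, Psmc1, Psmd14 and Psmd5 were lost under other settings and when certain arrays were left out. Median centring gave adjusted p-values of 0.0655 for Psmb3, 0.127 for Psmc1 and 0.0634 for Psmd5. Without a filter on dim probes Psmd14 was at 0.0572 and Psmd5 at 0.0815, and Psmd5 was also lost without background correction (0.0539) and in a fit of the type I series alone (0.0944). Without wild type I replicate 3 the adjusted p-values of Psmb3, Psmc1, Psmd14 and Psmd5 were 0.0669, 0.0841, 0.126 and 0.154, without knockout replicate 1 they were 0.0659, 0.112, 0.1 and 0.16, and without knockout replicate 2 they were 0.0917, 0.0821, 0.133 and 0.144. In each of these 3 cases 6 of 33 genes were called, all of them higher. The share of all genes called in either direction was also below the 27.8% of the main fit there. It stayed above the share of the 33 genes. Other arrays also ended calls: Psmb3 was at 0.0801 without wild type I replicate 1 and 0.054 without knockout replicate 3, Psmc1 at 0.0748 and 0.0524 without wild type I replicate 1 or 2, Psmd14 at 0.0601 without wild type I replicate 2 and Psmd5 at 0.0709 without wild type I replicate 1. Leaving out any wild type II array gave 0.0512 to 0.0519 for Psmd14 and 0.0577 to 0.0589 for Psmd5, and leaving out type II knockout replicate 1 gave 0.0535 for Psmd5.

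The calls were spread unevenly along the signal scale of the array, on which probes are not comparable as RNA amounts. Of the 7 proteasome genes with a mean log2 signal over 12 (Psma2, Psma3, Psma5, Psmb4, Psmc2, Psmb2 and Psmd4), 0 were called in the type I knockout, and their largest log2 change was 0.27. At 10 to 12 it was 4 of 11, at 8 to 10 it was 3 of 7, and under 8 it was 3 of 8. Over all genes the shares called higher were 10.9% over 12, 14.9% at 10 to 12, 13.9% at 8 to 10 and 10.8% under 8. Whether the brightest probes were limited by saturation was not tested.

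The promoters of 3 members are shown because Psmd11 and Psmd12 rose and Psmb5 carries a match to the motif that Nfe2l1 and Nfe2l2 are known to bind, the antioxidant response element. Each is the 250 bases before the gene's start in RefSeq, build GRCm38.p6, written 5′ to 3′ in the direction of the gene, with a match to the core TGACNNNGC on either strand in capitals. Psmd11 lies on the plus strand of chromosome 11 (chr11:80428365-80428614) and has no match in these bases. Psmd12 lies on the plus strand of chromosome 11 (chr11:107479278-107479527) and has its match on the opposite strand, with the first base at -247 from the start. Psmb5 lies on the minus strand of chromosome 14 (chr14:54617996-54618245), with the first base of its match at -47.
Psmd11: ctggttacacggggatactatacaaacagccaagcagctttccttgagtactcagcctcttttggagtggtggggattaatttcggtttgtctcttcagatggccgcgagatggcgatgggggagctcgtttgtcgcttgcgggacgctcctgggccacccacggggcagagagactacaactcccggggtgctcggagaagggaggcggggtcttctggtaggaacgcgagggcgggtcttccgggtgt
Psmd12: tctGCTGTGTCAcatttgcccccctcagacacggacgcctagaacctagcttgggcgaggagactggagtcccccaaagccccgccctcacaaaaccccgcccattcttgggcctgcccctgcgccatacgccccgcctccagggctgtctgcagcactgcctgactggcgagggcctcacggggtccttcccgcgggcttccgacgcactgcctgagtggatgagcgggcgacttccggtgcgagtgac
Psmb5: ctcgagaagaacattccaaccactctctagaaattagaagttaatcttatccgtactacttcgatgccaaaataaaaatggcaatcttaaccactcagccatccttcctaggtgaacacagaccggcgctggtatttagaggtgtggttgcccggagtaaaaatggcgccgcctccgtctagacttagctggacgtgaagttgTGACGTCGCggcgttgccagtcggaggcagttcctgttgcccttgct
A RefSeq promoter window (250 bases before the start and 50 after) was found for 28 of the 33 genes. The core was found on either strand in 5 of 28 (17.9%), against 14% of 27025 genes in the table. The 5 were Psmb5, Psmb6, Psmc6, Psmd9 and Psmd12, of which only Psmd12 was called in the type I knockout. Among the genes called higher there, 1 of 8 with a window held it, and among the others 4 of 20. The sequence CCAAT, searched on both strands, was found in 10 of 28 (35.7%), against 41.1% of all genes. A match here is a string of letters and was not tested as a binding site.

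In skin of the type II knockout, few proteasome genes changed. Of 33 genes, 2 rose and 0 fell (6.06%), against 15.6% of all genes called higher, 21.8% called lower and 37.5% called in either direction. The risers were Psmd11 and Psmd2. When all entered probes were fitted, as given below, 6 of 33 genes had a probe called higher, and 17.7% of all named genes did. A positive log2 change was seen in 13 of 33 (39.4%), against 43.4% of all genes, and the median log2 change was -0.05 against -0.08. The groups were separate upward on 6 genes and downward on 4, against 19.9% and 29.3% of all genes. By role, 0 of 13 core particle genes and 2 of 16 regulatory particle genes were called, and all 6 ATPases had negative log2 changes, between -0.23 and -0.04, without a call.

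Psmd11 measured 7.24, 6.86 and 7.07 in wild type II and 8.14, 7.92 and 7.79 in the type II knockout. It was higher on every knockout array, by a log2 change of 0.89 ± 0.14, which is 1.86-fold (adjusted p = 0.000608), and it remained called in all 23 alternative analyses. Psmd2, a scaffold of the base to which ubiquitin receptors bind, measured 5.82, 5.70 and 5.91 in wild type II and 6.14, 6.13 and 6.22 in the knockout (log2 change 0.35 ± 0.13, adjusted p = 0.0439). Its groups did not overlap, but it stayed called in only 7 of 23 alternatives. Its adjusted p was 0.0747, 0.0656 and 0.0903 without knockout replicate 1, 2 or 3, and 0.0944, 0.152 and 0.0583 without wild type II replicate 1, 2 or 3. Leaving out wild type I replicate 2, type I knockout replicate 1 or type I knockout replicate 2, which enter through the shared spread, gave 0.0575, 0.053 and 0.0568.

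Other members were separate between wild type II and the knockout without being called. Psma7 measured 10.41, 10.30 and 10.38 against 10.69, 10.54 and 10.68 (log2 change 0.27 ± 0.12, adjusted p = 0.0869). It passed in 4 of 23 alternatives, at 0.0325 without background correction, 0.0482 with an offset of 50, 0.046 without a filter on dim probes and 0.0405 with the mean of its probes. Psmb7 measured 10.27, 10.25 and 10.09 against 10.54, 10.33 and 10.54 (log2 change 0.27 ± 0.13, adjusted p = 0.114). On both genes every knockout array was higher. Psmd5 measured 6.04, 6.09 and 6.15 against 6.72, 6.57 and 6.78 (log2 change 0.60 ± 0.27, adjusted p = 0.0995). Its groups were tight here, while its arrays in the type I series, which share the estimate of spread, were not, and without type I knockout replicate 3 its adjusted p was 0.0343. Psmc5, of the ATPase ring, measured 11.18, 11.09 and 11.14 against 10.88, 10.80 and 11.04 (log2 change -0.23 ± 0.11, adjusted p = 0.128), lower on every knockout array. Psmd9 measured 7.13, 7.09 and 6.96 against 6.76, 6.81 and 6.89, also lower on every knockout array (log2 change -0.24 ± 0.12, adjusted p = 0.141).

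The remaining members with full values overlapped between the groups or came close to it. Psmb5 measured 8.25, 7.29 and 7.49 in wild type II and 8.51, 7.19 and 7.51 in the knockout (log2 change 0.06 ± 0.37, adjusted p = 0.915). In both groups replicate 1 was high and the others low. Psmb6 measured 11.16, 11.20 and 11.11 against 11.19, 10.86 and 10.97 (log2 change -0.15 ± 0.12, adjusted p = 0.348). Psmb10 measured 8.33, 8.34 and 8.23 against 7.99, 8.21 and 8.20, lower on all knockout arrays by a narrow gap (log2 change -0.17 ± 0.18, adjusted p = 0.5). Psmc3ip measured 8.14, 8.43 and 7.93 against 6.79, 8.09 and 7.89. Replicate 1 of the knockout was far below the other arrays, and the log2 change of -0.58 ± 0.27 was not called (adjusted p = 0.119).

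Replicate 2 of the type II knockout was low for the proteasome genes. The median over the 33 genes of the array's log2 signal minus the wild type II mean was -0.25 there, with 6 of 33 above 0, against 0.06 and 0.05 in replicates 1 and 3, with 18 of 33 above 0 on each. Over all genes the same median was -0.08 on that array and -0.07 and -0.09 on the others. The same array also differed from replicates 1 and 3 on marker genes of other tissues. The summed linear signal of 6 adipocyte markers was 11243 there against 5085 and 6222 in replicates 1 and 3, and that of 11 skeletal muscle markers was 47926 against 78802 and 86272. The log2 signal of Krt10 was 14.34 there against 12.29 and 11.98. In wild type II the adipocyte sum was 11428 to 14855, the muscle sum 123032 to 138325 and Krt10 14.28 to 14.52. Replicate 2 was thus the knockout array nearest to wild type II on adipocyte markers and Krt10, and the furthest from it on muscle markers. The part of these differences in the proteasome values was not tested. The raw median signal of this array, 108.8, lay between those of replicates 3 (107) and 1 (121.2). Without that array the members' median log2 change was 0.08, with 19 of 33 positive, and the number of genes called stayed at 2. They were then Psmd11, which rose, and Psmc3ip, which fell (log2 change -0.82, adjusted p = 0.0369), while Psmd2 was no longer called (adjusted p = 0.0656). The 3 type I knockout arrays were alike on this measure, with medians of 0.30, 0.27 and 0.20 and 28 of 33 genes above 0 on each.

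**Figure D3:**
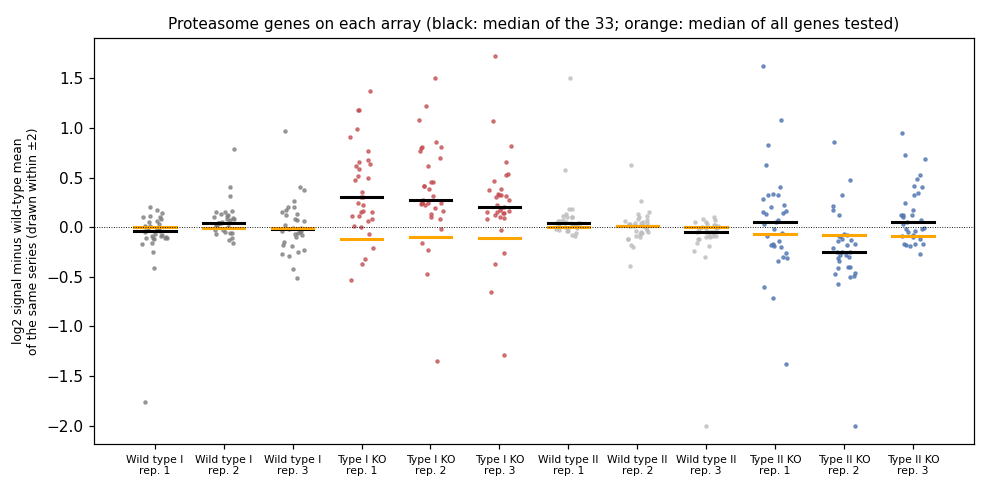
Log2 signal of each of the 33 proteasome genes minus the mean of the wild-type arrays of the same series (vertical axis), on each of the 12 arrays. Grey points are wild-type arrays, red points type I and blue points type II knockout arrays, black bars mark the median of the 33 genes, orange bars the median of all genes, and points beyond ±2 are drawn at the edge. The black bars stand at 0.20 to 0.30 on the type I knockout arrays and at -0.25 on replicate 2 of the type II knockout.

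The knockouts were then compared with each other through the difference between their changes (type II minus type I). The difference was negative for 31 of 33 genes and positive for 2 (6.06%, against 49.9% of all genes), with a median of -0.39 against 0.00 over all genes. The signed change was therefore lower in the type II knockout for all but Psmb10 and Psmd8, which says nothing of the size of the changes. By the test of the difference itself 1 gene passed (3.03%), in the negative direction, against 3.06% of all genes (1.85% in that direction), and 11 of 33 had an unadjusted p under 0.05, against 16.5%. That gene was Psmb1. It measured 9.89, 9.83 and 9.41 in wild type II and 9.62, 9.30 and 9.54 in the type II knockout, where the groups overlapped, and its difference between the changes was -1.14 ± 0.26 (adjusted p = 0.0375). The call was lost in 10 of 22 alternatives, with adjusted p-values of 0.0821 and 0.0954 without wild type I replicate 1 or 2, 0.0928, 0.0656 and 0.0803 without type I knockout replicate 1, 2 or 3, 0.11 and 0.086 without wild type II replicate 1 or 2, and 0.0541 and 0.0568 without type II knockout replicate 1 or 2. Without type II knockout replicate 3 there were 2 calls, Psmb1 and Psmd1.

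The next in order of the unadjusted p were Psmd11, Psma4 and Psmd6, none of them called. Psmd11 rose in both knockouts and had a difference of -0.64 ± 0.20 (adjusted p = 0.127). Psma4 measured 11.64, 11.86 and 11.68 in wild type II and 11.52, 11.48 and 11.68 in the type II knockout, for a difference of -0.53 ± 0.18 (adjusted p = 0.157). Psmd6, a lid subunit, measured 8.15, 8.36 and 7.63 in wild type I, 8.67, 8.51 and 8.44 in the type I knockout, 8.01, 8.20 and 7.94 in wild type II and 7.34, 7.84 and 7.97 in the type II knockout. It was higher on every type I knockout array, overlapped in the type II series, and had a difference of -0.82 ± 0.29 (adjusted p = 0.169). Side by side, 12 of 33 genes had positive changes in both knockouts, 16 in the type I knockout only, 1 in the type II knockout only and 4 in neither. The changes of the 33 genes correlated between the knockouts at 0.682 (Pearson) and 0.539 (Spearman), against 0.671 and 0.68 over all genes. This is across genes, which are not independent replicates, and the comparisons share no arrays.

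The wild types themselves were not level. None of the 33 genes was called between wild type II and wild type I by limma (0 of 33, against 1.53% of all genes, with 3 of 33 at an unadjusted p under 0.05 against 17.1%), but 30 of 33 (90.9%) were higher in wild type II, against 52% of all genes, with a median log2 difference of 0.16 against 0.01. The groups were separate upward on 12 genes and downward on 1, against 14.9% and 13.1%. Psmc2 measured 12.08, 12.10 and 11.83 in wild type I and 12.39, 12.31 and 12.34 in wild type II (log2 difference 0.34 ± 0.14, adjusted p = 0.234). Psmd12 differed by 0.32 ± 0.14 (adjusted p = 0.274) on the arrays given above for wild type I and on 9.98, 9.82 and 9.94 in wild type II. Every wild type II array was higher than every wild type I array on both. Set directly against each other, the knockouts gave a median log2 difference (type II minus type I) of -0.20, with 26 of 33 genes lower in the type II knockout (78.8%, against 49.7% of all genes). These comparisons use the same arrays as the changes above. Series and any difference in handling cannot be told apart between the wild types.

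The number before the hyphen in the sample titles, whose meaning the labels do not give, splits each series further. In the type I series the median log2 change of the 33 genes was 0.31 within 2705 (2 knockout and 2 wild-type arrays) and 0.25 within 2602 (1 of each). In the type II series it was 0.03 within 2794, -0.25 within 2818 and 0.10 within 2819, each with 1 array of each kind. Psmd11 had a positive change within all 5 numbers, from 0.72 to 1.78, and Psmb1 had 1.03 and 0.69 in the type I series and -0.28, -0.52 and 0.13 in the type II series. With the title number as a block, 12 of 33 genes were called in the type I knockout, the 10 above with Psmb5 (adjusted p = 0.0228) and Psmd6. In the type II knockout it was 3, Psmd11 and Psmd2 with Psmd5 (adjusted p = 0.0049). With this block larger shares of all genes were also called in either direction than in the main fit, which gave 27.8% and 37.5%.

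The spread among arrays of a group was also read for each gene. The median SD within groups was 0.154 on the log2 scale, against 0.21 over all genes. Psmd8, a lid subunit, was the exception, with an SD of 1.76, at the 99.9th percentile of all genes. It measured 7.44, 9.99 and 10.17 in wild type I, 10.19, 7.85 and 7.91 in the type I knockout, 10.96, 10.08 and 7.32 in wild type II and 11.08, 7.08 and 10.40 in the type II knockout. The arrays fell into 5 low ones (up to 7.91) and 7 high ones (from 9.99), with a gap of 2.09 and with both kinds in every group. Neither knockout change was called (log2 changes -0.55 ± 1.18 and 0.07 ± 1.18, adjusted p = 0.763 and 0.97). Psmb5 followed at the 95.6th percentile, where 4 arrays from 3 groups read 8.25 or more and the other 8 read 7.72 or less. Of the high arrays, replicate 1 of wild type II and of the type II knockout share the title number 2794. Psmc3ip was at the 88.7th percentile and Psmd5 at the 87.8th. Each of Psmd8, Psmb5 and Psmc3ip has a single probe on the array, so no second probe could be set beside these patterns.

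**Figure D4:**
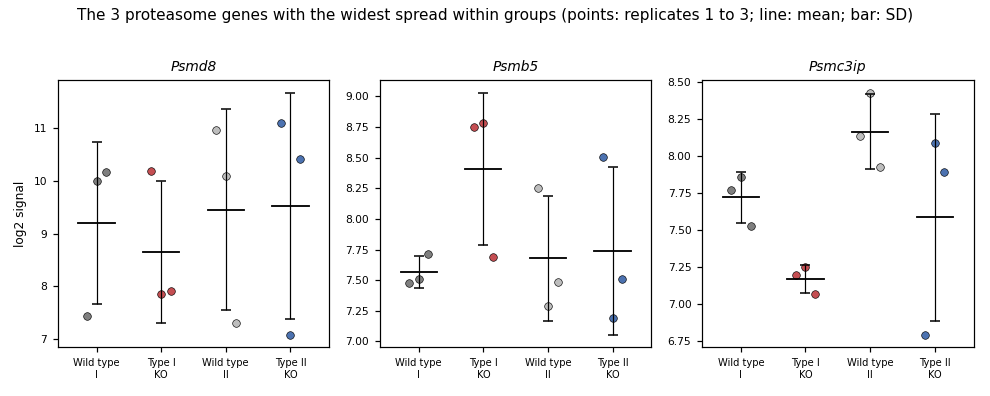
Log2 signal (vertical axes) of Psmd8, Psmb5 and Psmc3ip, 3 genes with wide spread within groups, on each array of the 4 groups. Points are replicates 1 to 3, lines means and bars SDs. Psmd8 reads at or below 7.91 on 5 arrays and at or above 9.99 on the other 7, with both levels in every group.

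For 11 of the 33 genes a further probe entered, and 0 of them had probes called in opposite directions. Fitted at the level of all 14744 entered probes, 13 genes had a called probe in the type I knockout, 3 of them only on a probe other than the one with the highest mean, and 6 had one in the type II knockout, 4 of them only on another probe. All of these calls were upward, and over all named genes the shares with a probe called higher were 13.4% and 17.7%. The second probe of Psmd11 gave log2 changes of 1.08 (adjusted p = 0.000775) in the type I knockout and 0.73 (adjusted p = 0.00544) in the type II knockout. Psmd7, the lid partner of Psmd14, differed between its probes: 0.20 and -0.09 on the probe used above, and 0.74 (adjusted p = 0.0278) and 0.62 (adjusted p = 0.0442) on the other. Psmc5 and Psmb2 rose in the type I knockout only on their other probe, by 0.63 (adjusted p = 0.00762) and 0.38 (adjusted p = 0.0491). The second probes of Psma7, Psmb7 and Psmd12 passed in the type II knockout, at log2 changes of 0.40 (adjusted p = 0.0278), 0.37 (adjusted p = 0.0284) and 0.39 (adjusted p = 0.0399), where the probes used above did not. The third probe of Psmb7 was called in neither knockout (log2 changes 0.29 and 0.28, adjusted p = 0.192 and 0.196).

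Genes around the proteasome were read from lists of known partners. The lists are short, and 27.8% and 37.5% of all genes were called in either direction in the type I and type II knockout. Of 4 listed proteins that associate with the regulatory particle, 3 entered and 1 rose in each knockout, the deubiquitinating enzyme Usp14. Usp14 measured 8.38, 8.55 and 7.97 in wild type I and 8.99, 8.96 and 8.98 in the type I knockout, and 8.12, 7.96 and 7.89 in wild type II and 8.66, 8.62 and 8.77 in the type II knockout. All knockout arrays were above their wild types, by log2 changes of 0.68 ± 0.15 (adjusted p = 0.00591) and 0.70 ± 0.15 (adjusted p = 0.00316), and both calls held in all 23 alternatives. Of 5 listed assembly chaperones outside the Psmd names, 4 entered and 1 rose in the type I knockout and 0 in the type II knockout. It was Pomp, which guides the maturation of the core particle, with a log2 change of 0.34 ± 0.11 (adjusted p = 0.0379) in the type I knockout, and -0.06 ± 0.11 in the type II knockout. The Pomp call was lost in 11 of 23 alternatives, among them the omission of wild type I replicate 1 (adjusted p = 0.123) or 3 (0.0611), of any type I knockout array (0.082 to 0.096) and of any wild type II array (0.0546 to 0.0566). Of 5 listed activators and inhibitors 4 entered and 0 were called in either knockout (Psme1 to Psme4, log2 changes from -0.14 to 0.21). The immunoproteasome subunit Psmb9 had log2 changes of 0.15 and 0.44 without a call, and Psmb8 did not enter.

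Of 5 listed transcription factors of proteasome genes and their processing proteins, 3 entered, and 1 rose in the type I knockout and 2 in the type II knockout. Nfe2l1 measured 10.63, 10.52 and 10.76 in wild type I and 10.64, 10.75 and 10.61 in the type I knockout, where the groups overlapped (log2 change 0.03 ± 0.14, adjusted p = 0.883). It measured 10.53, 10.81 and 10.64 in wild type II and 11.43, 11.32 and 11.02 in the type II knockout, a rise by 0.60 ± 0.14 on the log2 scale (adjusted p = 0.00504). Nfe2l2 measured 6.68, 6.86 and 6.51 in wild type I and 7.61, 7.23 and 7.36 in the type I knockout (log2 change 0.72 ± 0.23, adjusted p = 0.0355). Its arrays did not overlap in either series: it measured 6.45, 6.23 and 6.17 in wild type II and 8.26, 8.31 and 7.34 in the type II knockout (log2 change 1.69 ± 0.23, adjusted p = 0.000205). The differences between the changes, 0.56 for Nfe2l1 and 0.97 for Nfe2l2, did not pass (adjusted p = 0.156 and 0.146). The type I call of Nfe2l2 was lost without any single array of that series, with adjusted p-values of 0.0746, 0.0511 and 0.103 without wild type I replicate 1, 2 or 3 and 0.121, 0.0528 and 0.0729 without knockout replicate 1, 2 or 3. That call was also lost with median centring (adjusted p = 0.057) and without a filter on dim probes (0.0627). Without background correction the log2 change was 0.425 (adjusted p = 0.0648). Keap1, which holds Nfe2l2 protein low, was not called in either knockout (log2 changes -0.26 and -0.20).

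Among 10 listed shuttles, extraction factors and other handlers of ubiquitinated proteins, 7 entered. In the type I knockout 2 rose and 0 fell (28.6%, against 27.8% of all genes called in either direction). In the type II knockout 3 rose and 1 fell (57.1%, against 37.5%). The shuttle Rad23b had log2 changes of 0.38 ± 0.13 (adjusted p = 0.0445, lost in 12 of 23 alternatives) and 0.50 ± 0.13 (adjusted p = 0.00921). Nploc4, a cofactor of the segregase Vcp, had 0.48 ± 0.14 (adjusted p = 0.022) and 0.58 ± 0.14 (adjusted p = 0.00549). Without any single array of the type I series the type I call of Rad23b was lost (adjusted p = 0.0641 to 0.128), as it was without any wild type II array (0.0591 to 0.0632) or type II knockout replicate 1 (0.0518), and that of Nploc4 was lost without any type I knockout array or wild type I replicate 2 or 3 (0.0513 to 0.0677). With median centring both genes lost their calls in both knockouts, at adjusted p-values of 0.139 and 0.106 for Rad23b and 0.112 and 0.108 for Nploc4. Sqstm1 (p62), an autophagy receptor and known Nfe2l2 target, had 0.51 ± 0.21 without a call in the type I knockout (adjusted p = 0.0847, or 0.0466 and 0.0169 without type II knockout replicate 1 or 2) and rose by 1.18 ± 0.21 in the type II knockout (adjusted p = 0.00109). The shuttle Ubqln1 had -0.27 ± 0.12 (adjusted p = 0.123) and -0.38 ± 0.12 (adjusted p = 0.0282), and both signs turned when all its entered probes were averaged. Its type II call was lost without replicate 1 or 3 of wild type II (adjusted p = 0.0969 and 0.0742) or of the knockout (0.0782 and 0.0602). Vcp itself had -0.07 and -0.21 without a call. Of 6 listed ubiquitin and E1 genes, Uba6 alone entered, with log2 changes of 0.06 and 0.03.

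**Figure D5:**
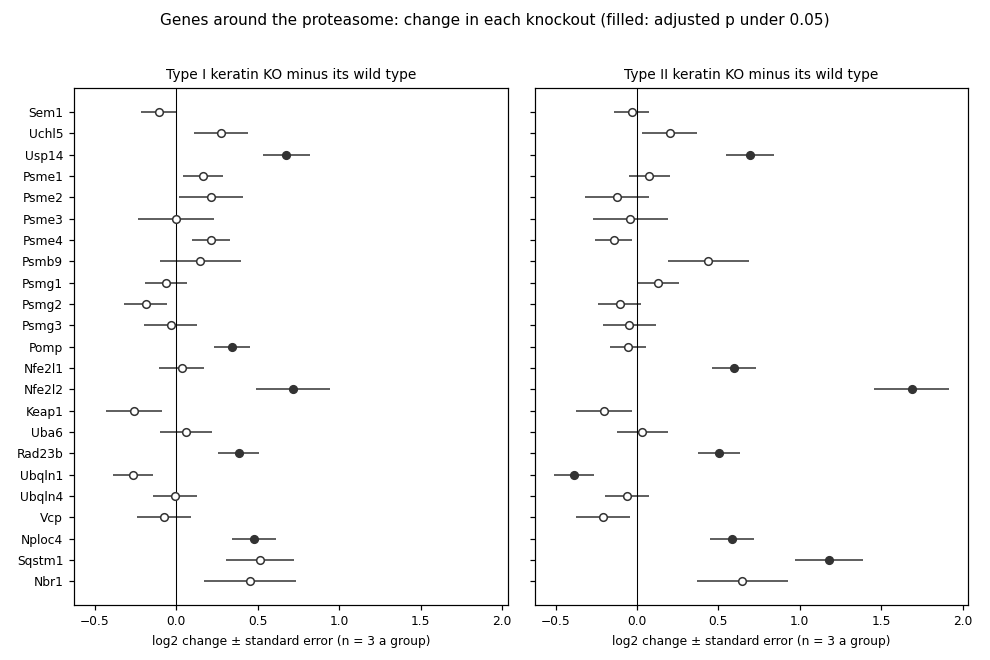
Log2 change (horizontal axis) of genes around the proteasome in the type I knockout (left) and the type II knockout (right) against its own wild type, 3 arrays a group. Points are the fitted changes, bars the standard errors, and filled points have an adjusted p under 0.05. Usp14 lies at 0.68 and 0.70 in the 2 panels, and Nfe2l2 lies further right in the type II knockout (1.69) than in the type I knockout (0.72).

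Marker genes of the tissues in back skin moved in both knockouts. Over all genes, 12.2% and 15.6% were called higher in the type I and type II knockout, and 15.6% and 21.8% lower. Of 9 keratinocyte markers other than keratins, 6 rose in the type I and 8 in the type II knockout, and their summed linear signal was 6655 to 8592 in wild type I, 13513 to 14253 in the type I knockout, 8349 to 9213 in wild type II and 20524 to 22937 in the type II knockout. Of 11 dermal fibroblast markers 8 and 6 fell, with summed signals of 60258 to 65249, 40030 to 47078, 59186 to 61054 and 36061 to 44323 in the same order. Of 11 skeletal muscle markers 6 and 10 fell, and of 6 adipocyte markers 6 and 5 fell. Of 6 endothelial markers 1 fell in the type I knockout and 0 were called in the type II knockout, with median log2 changes of -0.35 and -0.12. Of 5 leukocyte markers 0 were called in either, with medians of 0.04 and -0.45. Of 3 erythroid markers 2 fell in the type I knockout and 0 were called in the type II knockout, with medians of -0.64 and 0.39. The part of tissue makeup in the proteasome changes was not tested.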

How the data were processed

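Per the file headers, the main deposited file gives average bead signals per probe, an intensity that the authors neither normalized nor background-subtracted. It also holds a detection p-value per probe and array, deposited by the authors, and how it was computed is not given in the sources used here. A second table deposited by the authors holds processed intensities of the same arrays on a linear scale and served as an alternative. Signals were background-corrected by normexp (controls inferred from the detection p-values, offset 16), brought to a common distribution (quantile normalization) and log2-transformed, with limma 3.58.1 under R 4.3.3. Of 25697 probes, 14744 were detected (p under 0.05) on at least 3 arrays. Where several probes of a gene entered, the 1 with the highest mean stood for it, and levels of different probes were not compared. Gene names came from the platform's annotation (23978 probes with a symbol), and all 35 proteasome symbols matched current RefSeq names. The 12 arrays in 4 groups were fitted in limma with 1 shared spread (8 residual degrees of freedom), p-values were Benjamini-Hochberg adjusted over 11163 features, and a call is an adjusted p under 0.05. The procedure was tested on simulated data. Full values are given for the 8 genes with the smallest p in each knockout comparison, those with the largest rise and fall, the 4 with the smallest p in the difference, the 2 between the wild types, and the catalytic subunits. Psmd14 and Psmd5 were added as the other genes called in the type I knockout. These and Psmd8 were singled out after their values were seen. The members and lists were chosen with earlier results of these data known. The number of arrays limits the precision.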

Additional observations from a re-analysis of the deposited data

Results flagged for a closer look

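Psmb1 was flagged because its change differed between the knockouts in the test of the difference itself. It was the 1 call among 33 genes (3.03%), against 3.06% of all genes, so the share of calls was close to that of all genes. The log2 change was 0.92 ± 0.19 in the type I knockout and -0.22 ± 0.19 in the type II knockout, and the difference (type II minus type I) was -1.14 ± 0.26 (limma, adjusted p = 0.0375). All 3 type I knockout arrays were higher than their wild types, and the type II knockout arrays overlapped theirs. The call was lost in 10 of 22 alternatives, over which the adjusted p of the difference ran from 0.0169 to 0.11.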

How the results depend on the processing

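Under the alternatives tried (23 for each knockout comparison, 22 for the others), 937 of 1075 recomputed values for 47 results on single genes kept their direction and their side of the threshold. In part of these values the direction could not change. For a knockout comparison, leaving out an array of the other series, fitting only its own arrays or adding a block leaves the log2 change as it was. The median log2 change of the members in the type I knockout was 0.3507 with the mean of all entered probes and 0.2374 to 0.2756 with 1 array left out. In the type II knockout it was -0.1403 to 0.0766 with 1 array left out. The number of members called in the type I knockout was 16 with array weights and 6 to 13 with 1 array left out. Of the 16, 15 were higher and Psmc3ip was lower (log2 change -0.581, adjusted p = 0.038). The share of all genes called in either direction moved in the same way. It was above the 27.8% of the main fit with array weights and in the case with 13 calls. It was below 27.8% in the cases with 6 calls. In the type II knockout the number of members called was 1 with the authors' processed values and 1 to 3 with 1 array left out. For the difference between the changes it was 0 without a filter on dim probes and 0 to 2 with 1 array left out. With median centring, the log2 change of Psmb5 in the type II knockout was -0.126 and that of Nfe2l1 in the type I knockout -0.00745. With 1 array left out, these ran from -0.326 to 0.349 and from -0.0264 to 0.0949. With the mean of all entered probes Ubqln1 was at 0.574 and 0.271. The cause of these shifts was not tested. With the replicate number as a block (replicate block), 10, 2, 1 and 0 members were called, but not the same ones. In the type I knockout Psmb5 came in (adjusted p = 0.0373) and Psmc1 was lost (0.0506), and in the type II knockout Psmd5 came in (0.00957) and Psmd2 was lost (0.0735). Deviations of arrays with the same number correlated at 0.0281 to 0.359, and 3 of 6 knockout arrays correlated best with their own replicate number. The replicate numbers were therefore not taken as pairs. Type I knockout replicates 1 and 2 correlated best with wild type I replicates 2 and 1, which carry the same title number. In the type II series each replicate number has its own title number. There, knockout replicates 1 and 3 correlated best with their own number, and replicate 2 with replicate 1. Matching by title number was used only as a block in an alternative, and the main fit leaves it out. A block for the slide was not run, because the column names give none.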
